A study of Mus musculus with 10 samples.

Results

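A set of 40 genes that mark neurons in general, or the neurons of the spiral ganglion in particular, was examined in RNA of the newborn mouse cochlea. The genes were chosen by symbol, and a gene was kept when at least 5 libraries held 10 or more counts of it, which 37 of the 40 did, out of 54532 genes in the count table and 17937 genes tested. The study compared soft cochlear tissue of female mice on postnatal day 1, from 5 animals of genotype Esrrgfl/fl (control) and 5 of genotype Esrrgfl/fl;Sox10-Cre (conditional knockout, cKO). In both groups Esrrg, the gene of the nuclear receptor estrogen-related receptor gamma, is flanked by loxP sites, and the cKO label adds Cre recombinase under Sox10 regulatory sequence. Each library is 1 animal, with left and right cochlea combined after the bony capsule had been taken off. Sox10 is used by the otic epithelium and by glia of the neural crest, so Cre under its control is not specific to neurons.

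Spiral ganglion neurons carry signals from the hair cells to the brain and arise from the otic epithelium under the proneural factors Neurog1 and Neurod1. A neuron then switches on a shared program. It consists of transcription factors that hold other programs off, RNA-binding proteins that shape neuronal splicing and mRNA stability, an axonal skeleton of neurofilaments and tubulins, proteins of the growth cone and its microtubules, and cargo of dense-core vesicles. Around birth these neurons are still extending and pruning their processes.

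The targeted gene was examined before the neuronal genes. Esrrg (ENSMUSG00000026610) measured 56.1, 48.5, 60.9, 64.7 and 61.7 CPM (counts scaled to a common library total) in controls 1 to 5 and 109, 96.0, 78.2, 70.7 and 95.0 CPM in cKO 1 to 5. Its level was thus higher where a deletion is labelled, by a log2 fold change (libraries labelled cKO against controls, hereafter log2 change) of 0.62 (SE 0.117; edgeR adjusted p 0.0259), and the groups did not overlap. The adjusted p lay between 0.0505 and 0.0992 without control 1, 3, 4 or 5 or cKO 1, 2 or 5. Counts are summed over all exons, so they cannot show a deleted exon. Because these counts were higher and cannot show the deletion, the second group is named here as the libraries labelled cKO. Library totals ran from 33.5 to 41.8 M counts (M, mega). Control 2 stood apart from the other controls in 10 of the 37 genes, and results that change without it are given with that value. In bulk tissue, fewer neurons and less RNA per neuron cannot be told apart.

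The RNA of the set was present in every library, over a wide range of levels. On the FPKM scale, which divides by gene length and so allows genes to be compared, the highest control mean was that of Uchl1, a ubiquitin hydrolase abundant in neurons, at 137 ± 26.9 (SD, n = 5). The tubulin Tubb2a followed at 123 ± 6.68 and the stathmin Stmn3 at 115 ± 29.5, and these neighbours differed by less than their spread. At the low end, the transcription factors Insm1, Myt1l and Neurod1 had control means of 0.939 ± 0.201, 0.793 ± 0.134 and 0.341 ± 0.137 FPKM. The genes below the count rule were all basic helix-loop-helix transcription factors of neurogenesis. Neurog1 had 3 counts in control 5 and 0 in the other 9 libraries, Neurod4 had at most 2 counts, and Neurod2 had 1 to 19 counts, with 10 or more in 3 libraries.

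Of the 37 genes, 8 fell under the cKO label (adjusted p under 0.05, edgeR), as did 0.546% of all tested genes. They were Scrt1, Scrt2, Elavl4, Rbfox1, Ina, Stmn4, Chga and Chgb, with log2 changes from -0.67 to -1.05. No gene of the set rose, against 0.0725% of all tested genes. At an unadjusted p under 0.05, 20 genes were lower and 3 were higher, where the shares of all tested genes were 5.52% and 4.13%. DESeq2 called 11 lower and 0 higher, and limma-voom with quality weights, which gives less weight to libraries that vary more, 14 lower and 1 higher. Both also called more of all 17937 tested genes. DESeq2 called 253 lower and 54 higher and limma-voom 362 and 74, where edgeR called 98 and 13. The log2 change was under 0 for 30 of 37 genes, against 51.7% of tested genes, and its median was -0.32, against -0.01 over all tested genes. CPM values of the groups did not overlap for 9 lower genes and 0 higher genes, while over all tested genes the shares were 1.64% and 1.2%.

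**Figure D1:**
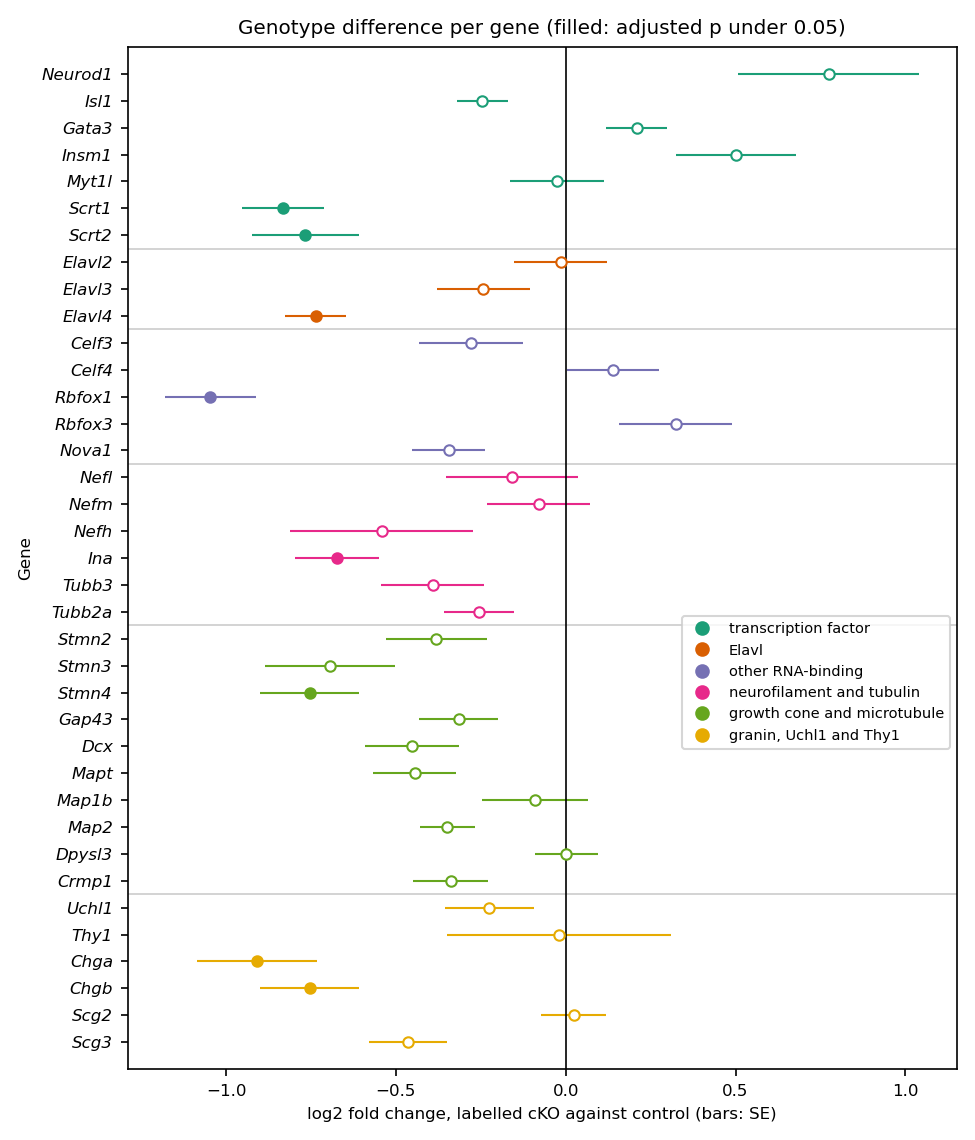
Log2 change of each of the 37 genes on the x axis, libraries labelled cKO against controls, with the SE as bars and genes on the y axis coloured by class. Filled points are the 8 genes with an edgeR adjusted p under 0.05, and all 8 lie between -0.67 and -1.05.

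The count depended on single libraries. With control 3, control 4 or cKO 5 left out, 3 of the genes were called lower. The count was 4 without control 1 or cKO 2, 5 without control 5 or cKO 4, 6 without cKO 3, 9 without cKO 1 and 11 without control 2. Lower calls over all tested genes moved too, from 98 with all libraries to 44, 59 and 47 without control 3, control 4 and cKO 5. Without control 2 they numbered 178. Scrt1, Elavl4 and Rbfox1 were called in all of these 10 fits with 1 library left out, with adjusted p of at most 0.0244, 0.00629 and 0.00981. No other gene of the set was.

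**Figure D2:**
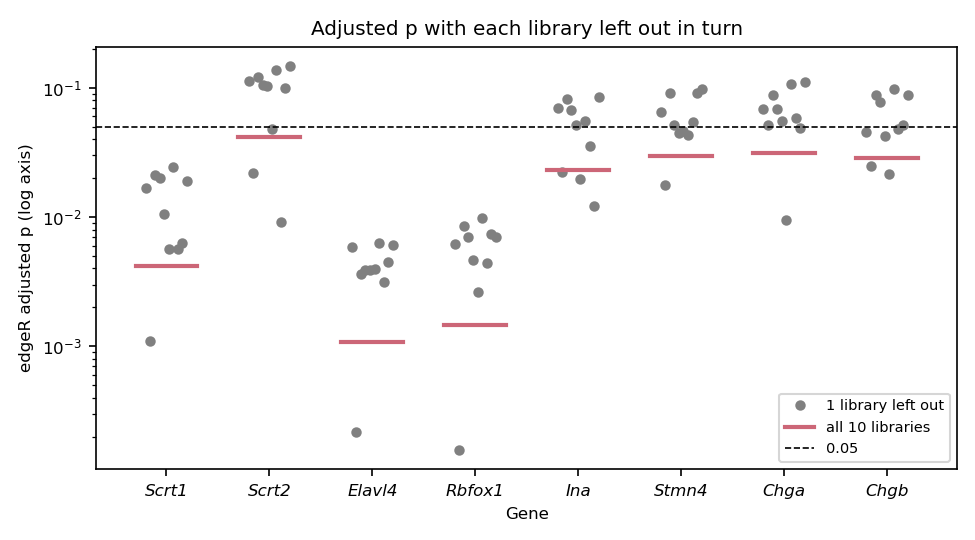
Adjusted p of the 8 called genes on a log axis, with all 10 libraries (red bar) and with each library left out in turn (grey points, 10 per gene), and a dashed line at 0.05. The points of Scrt1, Elavl4 and Rbfox1 stay below the line, while each of the other 5 genes has points on both sides.

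Among the transcription factors, the Scratch zinc-finger repressors fell and the rest did not pass the test. Scrt1 (ENSMUSG00000048385; GRCm38 chromosome 15, 76516203 to 76522499, minus strand) measured 43.0, 38.3, 46.9, 46.2 and 41.0 CPM in controls 1 to 5. The libraries labelled cKO held 28.7, 23.0, 28.2, 17.8 and 23.3 CPM of Scrt1 in the same order. The highest of these lay well under the lowest control, and the log2 change was -0.83 (SE 0.122), at an edgeR adjusted p of 0.00416, a fall to 0.562 times the control level. Scrt1 lies 2.63 Mb from Sox10 on the same chromosome, and the part of this position in the fall was not tested.

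Scrt2 (ENSMUSG00000060257; chromosome 2, 152081529 to 152095802, plus strand), its paralogue, also fell. Its CPM was 25.4, 20.3, 23.3, 23.8 and 24.3 in controls 1 to 5 and 16.3, 11.2, 19.0, 10.0 and 12.3 in cKO 1 to 5. The groups did not overlap, although cKO 3 came close to control 2. The log2 change was -0.77 (SE 0.156), at an edgeR adjusted p of 0.0413. This call was lost without control 1, 3, 4 or 5 and without cKO 2, 4 or 5, where the adjusted p lay between 0.0996 and 0.147.

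The other factors went in different directions. Isl1, a LIM-homeodomain factor of sensory neurons that prosensory cells also use, ran from 58.4 to 70.7 CPM in controls and from 53.4 to 57.4 CPM in the libraries labelled cKO. These groups did not overlap, but the log2 change was small, -0.25 (SE 0.0755), and the adjusted p was 0.266, or 0.0323 without control 2. Neurod1, the factor that drives otic neuron differentiation, had 62, 43, 21, 21 and 33 counts in controls 1 to 5 and 66, 52, 65, 49 and 64 counts in cKO 1 to 5. Control 1 reached the counts of the other group, and the log2 change was 0.77 (SE 0.267), at an adjusted p of 0.337. Insm1, a zinc-finger factor of differentiating neurons and outer hair cells, had a log2 change of 0.50 (SE 0.177), at an adjusted p of 0.355. Gata3, which both the ganglion and the cochlear epithelium express, had 80.9, 71.8, 65.4, 77.4 and 76.7 CPM in controls and 85.8, 70.1, 92.3, 90.5 and 91.6 CPM in cKO 1 to 5. All of the latter except cKO 2 lay above every control, and the log2 change was 0.21 (SE 0.0899), at an adjusted p of 0.481. Neurod1, Insm1 and Gata3 were the 3 genes of the set with an unadjusted p under 0.05 on the higher side. For Myt1l, a repressor of programs of other cells, the value was -0.02 (SE 0.139). The median of the 7 tested factors was -0.02, and it was above 0 without control 5, cKO 4 or cKO 5 (at most 0.065).

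The Elavl proteins bind AU-rich mRNA and mark nearly all young neurons. Of the 3 neuronal members, Elavl4 fell and Elavl2 and Elavl3 did not pass the test. Elavl4 (ENSMUSG00000028546; chromosome 4, 110203722 to 110351909, minus strand) measured 71.3, 64.4, 58.7, 62.8 and 72.6 CPM in controls 1 to 5. It measured 43.2, 39.9, 42.6, 33.5 and 38.9 CPM in cKO 1 to 5. Every control lay above every library labelled cKO, and the log2 change of -0.74 (SE 0.0902) had an edgeR adjusted p of 0.00108. Elavl2 had 33.4, 30.7, 33.4, 27.5 and 32.0 CPM in controls and 42.1, 26.0, 29.1, 23.7 and 34.6 CPM in the libraries labelled cKO. These values interleave, and the log2 change was -0.01 (SE 0.137), at an adjusted p of 0.979. Elavl3 ran from 33.6 to 51.2 CPM in controls and from 28.9 to 47.5 CPM in the libraries labelled cKO, with a log2 change of -0.24 (SE 0.138), at an adjusted p above 0.6.

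Whether Elavl4 changed relative to its paralogues was tested on the difference within each library. The 2 comparisons were chosen with earlier results of these data known, so their p-values are no independent evidence beside the call of Elavl4. The difference in log2 CPM between Elavl4 and Elavl3 averaged 0.51 ± 0.261 (SD, n = 5) over the controls and 0.017 ± 0.128 (SD, n = 5) over cKO 1 to 5. In controls it ran from 0.28 to 0.94 and in the libraries labelled cKO from -0.14 to 0.21, so the groups were apart. The change of -0.49 had an exact two-sided permutation p of 0.00794, the smallest that 5 libraries against 5 allow. Against Elavl2, the difference went from 1.07 ± 0.152 to 0.37 ± 0.255, a change of -0.69 with the same exact permutation p. Adjusted over these 2 comparisons by the Benjamini-Hochberg method, both permutation p-values were 0.00794.

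Of the Rbfox splicing factors, Rbfox1 fell and Rbfox3 did not pass the test. Rbfox1 (ENSMUSG00000008658; chromosome 16, 5885355 to 7411526, plus strand) measured 15.1, 12.8, 15.98, 15.8 and 18.9 CPM in controls 1 to 5. In cKO 1 to 5 it measured 9.38, 6.78, 8.31, 7.20 and 6.42 CPM. The level fell to 0.484 times that of controls, a log2 change of -1.05 (SE 0.133), at an edgeR adjusted p of 0.00146. Rbfox3, which encodes the neuronal nuclear antigen NeuN, had 16.8, 14.1, 15.3, 16.2 and 17.5 CPM in controls and 28.6, 17.8, 19.0, 12.8 and 21.8 CPM in cKO 1 to 5. Of the latter, 4 lay above all controls and cKO 4 lay below them, and the log2 change of 0.32 (SE 0.166) had an adjusted p of 0.569. The within-library difference, Rbfox1 minus Rbfox3, was chosen after these values were seen, so its p-value is no independent evidence beside the call of Rbfox1. This difference was -0.03 ± 0.116 log2 units in controls and -1.35 ± 0.362 in the libraries labelled cKO, with an exact two-sided permutation p of 0.00794.

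**Figure D3:**
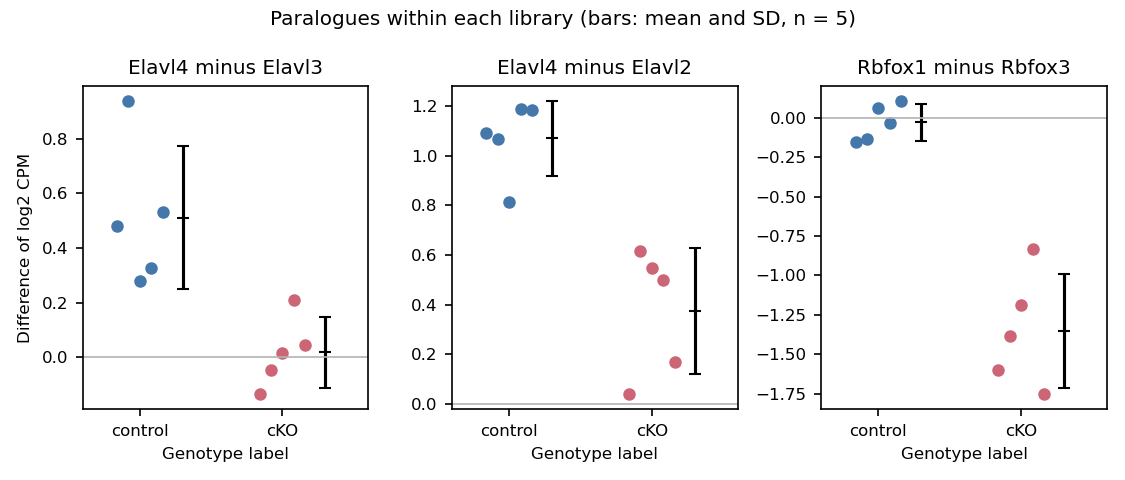
Difference in log2 CPM between paralogues within each library, on the y axis of each panel, for 5 controls and 5 libraries labelled cKO, with mean and SD beside the points. In all 3 panels the groups are apart, by -0.49 for Elavl4 minus Elavl3, -0.69 for Elavl4 minus Elavl2 and -1.32 for Rbfox1 minus Rbfox3.

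The remaining RNA-binding genes did not pass the test. Nova1, a neuronal splicing factor, had 13.9, 11.8, 10.6, 12.2 and 13.5 CPM in controls and 9.95, 8.83, 11.0, 9.57 and 9.40 CPM in cKO 1 to 5. Control 3 and cKO 3 overlapped, and the log2 change was -0.34 (SE 0.108), at an edgeR adjusted p of 0.273. The values were -0.28 (SE 0.153) for Celf3 and 0.14 (SE 0.136) for Celf4, both CUG-binding splicing and translation factors. The median over Celf3, Celf4, Rbfox1, Rbfox3 and Nova1 was -0.28.

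In the axonal skeleton, the neurofilament-type protein alpha-internexin fell. Its gene Ina (ENSMUSG00000034336; chromosome 19, 47014698 to 47025327, plus strand) measured 131, 116, 125, 131 and 121 CPM in controls 1 to 5 and 93.0, 85.4, 86.9, 53.4 and 72.5 CPM in cKO 1 to 5. The groups did not overlap, and cKO 4 was the lowest. The log2 change was -0.67 (SE 0.123), at an edgeR adjusted p of 0.0230, and the call was lost without control 1, 3, 4 or 5 or cKO 2 or 5, with adjusted p between 0.0514 and 0.0851. Exons of Ina overlap those of Nt5c2 on the opposite strand over 456 of 3240 bases, and reads of the overlap cannot be assigned without a stated use of strand. Of the 37 genes, 11 have exons that overlap those of another gene, Ina alone among the called.

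None of the neurofilament triplet passed the test, and their values were spread more widely among the libraries labelled cKO. Nefm, the medium chain, had 382, 362, 374, 362 and 347 CPM in controls 1 to 5, and 466, 303, 389, 218 and 353 CPM in cKO 1 to 5. The latter group thus held both the highest and the lowest of the 10 values, and the log2 change was -0.08 (SE 0.151), at an adjusted p of 0.884; without cKO 4 it was 0.05. Nefh, the heavy chain, had 59.2, 83.1, 88.7, 84.5 and 58.9 CPM in controls and 79.6, 38.1, 70.2, 23.6 and 45.7 CPM in cKO 1 to 5. Its log2 change was -0.54, but the SE of 0.269 left an adjusted p of 0.554. Nefl, the light chain, whose exons overlap those of Nefm over 1108 bases on the opposite strand, had a log2 change of -0.16 (SE 0.194).

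The tubulins were between these. Tubb3, the neuronal class III beta-tubulin, ran from 135 to 178 CPM in controls and from 75.9 to 159.97 CPM in the libraries labelled cKO, with a log2 change of -0.39 (SE 0.152), at an edgeR adjusted p of 0.423. Tubb2a had 189, 213, 207, 202 and 187 CPM in controls and 202, 186, 164, 134 and 149.7 CPM in cKO 1 to 5. Of the latter, cKO 1 lay within the range of the controls and the others below it. Its log2 change was -0.26 (SE 0.103), at an adjusted p of 0.449, and as Tubb2b is a near-identical copy, the split of reads between them is uncertain. All 6 genes of this class had a negative log2 change, 1 passed the test, and the median was -0.32. Of all tested genes, 51.7% had a negative log2 change and 0.546% were called lower.

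**Figure D4:**
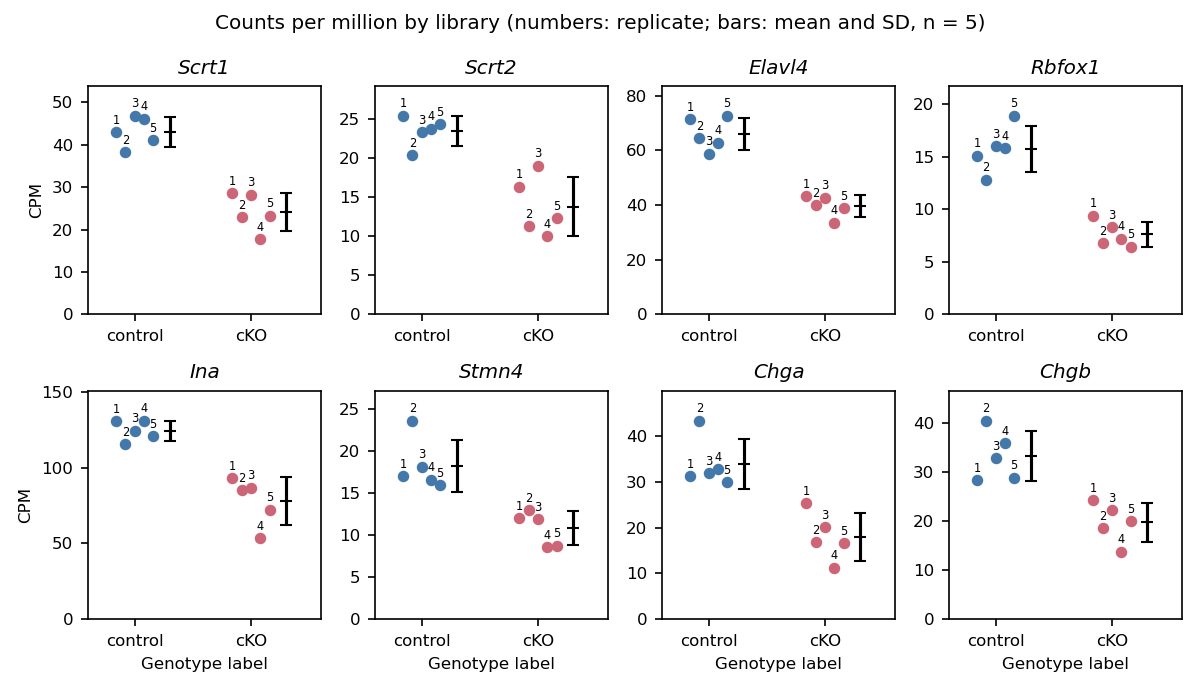
CPM of the 8 called genes by library, 1 panel per gene with the y axis from 0, controls in blue and libraries labelled cKO in red, with replicate numbers on the points and mean and SD beside them. The groups do not overlap in any panel, and cKO 4 is the lowest point for all genes except Rbfox1, where cKO 5 is.

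Among the 10 genes of the growth cone and its microtubules, Stmn4 was the member that fell. Stmn4 (ENSMUSG00000022044; chromosome 14, 66344296 to 66361680, plus strand), a stathmin that destabilises microtubules, had 17.0, 23.6, 18.2, 16.6 and 15.9 CPM in controls 1 to 5. It had 12.0, 12.9, 11.9, 8.58 and 8.74 CPM in cKO 1 to 5. Control 2 was apart on the high side and all controls lay above all libraries labelled cKO. The log2 change was -0.75 (SE 0.146), at an edgeR adjusted p of 0.0296, which lay between 0.0510 and 0.0970 without control 1, 3 or 4 or cKO 3, 4 or 5.

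Other genes of this class had lower means without passing the test. Stmn3, another stathmin, had 119, 193, 125, 116 and 107 CPM in controls and 117, 83.4, 85.1, 54.7 and 67.5 CPM in cKO 1 to 5. Among the libraries labelled cKO, cKO 1 alone lay within the range of the controls. The log2 change of Stmn3 was -0.69 (SE 0.192), at an edgeR adjusted p of 0.181; DESeq2 gave an adjusted p of 0.0322. Dcx, the microtubule protein doublecortin of young neurons, had 137, 80.9, 137, 141 and 148 CPM in controls 1 to 5 and 95.2, 108, 91.2, 81.7 and 94.6 CPM in cKO 1 to 5. Control 2 lay below all of the libraries labelled cKO, and the other controls lay above all of them. The log2 change of Dcx was -0.45 (SE 0.138), at an adjusted p of 0.255, and it was -0.59 with an adjusted p of 0.000262 without control 2. Map2, the dendritic microtubule protein, had 92.4, 73.2, 91.3, 94.3 and 92.6 CPM in controls and 72.7, 66.8, 73.7, 69.9 and 65.4 CPM in cKO 1 to 5. Here too control 2 alone met the other group, and the adjusted p was 0.0873 with all libraries and 0.00138 without control 2. Mapt, which encodes tau, had a log2 change of -0.45 (SE 0.123), at an adjusted p of 0.181, or 0.0417 without control 2.

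The growth-associated protein Gap43 had a log2 change of -0.32 (SE 0.115), Stmn2 one of -0.38 (SE 0.148) and the collapsin response mediator Crmp1 one of -0.34 (SE 0.110), and their adjusted p-values by edgeR were 0.383, 0.422 and 0.302. Map1b, a microtubule protein of growing axons, had -0.09 (SE 0.156). Dpysl3, of the same family as Crmp1 and the most abundant of the class after Stmn3 per length, had 490, 370, 498, 499.5 and 484 CPM in controls and 504, 462, 489, 433 and 455 CPM in cKO 1 to 5. Its log2 change was 0.0015 (SE 0.0930), a sign that turned without control 2, cKO 1 or cKO 3 and with limma-voom. The median of the class was -0.37, with 9 of 10 genes under 0 and 8 lower at an unadjusted p under 0.05. The shares of all tested genes were 51.7% and 5.52%.

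Among the granins, acidic proteins of dense-core vesicles, the chromogranins fell. Chga (ENSMUSG00000021194; chromosome 12, 102554969 to 102565028, plus strand) had 31.3, 43.5, 31.9, 32.8 and 30.0 CPM in controls 1 to 5. In cKO 1 to 5 it had 25.5, 16.8, 20.2, 11.2 and 16.6 CPM. This was a log2 change of -0.91 (SE 0.177), at an edgeR adjusted p of 0.0311. The call was lost without any 1 of the 5 controls and without cKO 2, 3 or 5, with adjusted p between 0.0517 and 0.110. Chgb (ENSMUSG00000027350; chromosome 2, 132781278 to 132795079, plus strand) had 28.3, 40.4, 32.8, 35.8 and 28.8 CPM in controls and 24.2, 18.5, 22.1, 13.7 and 19.9 CPM in cKO 1 to 5. Its log2 change was -0.75 (SE 0.145), at an adjusted p of 0.0284, which lay between 0.0514 and 0.0981 without control 3 or 4 or cKO 2, 4 or 5, and was 0.0576 with the replicate number as a block.

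The other vesicle and surface genes did not pass the test. Scg2, secretogranin II, ran from 99.0 to 135 CPM in controls and from 102 to 132 CPM in the libraries labelled cKO, with a log2 change of 0.02 (SE 0.0962), a sign that turned without control 3, control 5 or cKO 5. Scg3, which sorts chromogranin A into vesicles, had a log2 change of -0.47 (SE 0.115), at an edgeR adjusted p of 0.117, or 0.0492 without cKO 1. Uchl1 had 212, 307, 199, 201 and 205.2 CPM in controls and 236, 202, 188, 161 and 176 CPM in cKO 1 to 5. The groups overlapped in cKO 1 and cKO 2, and the log2 change was -0.22 (SE 0.131). Thy1, a surface glycoprotein of neurons and fibroblasts, had 8.28, 11.2, 11.5, 7.87 and 9.16 CPM in controls and 19.1, 6.69, 11.3, 3.50 and 6.89 CPM in cKO 1 to 5. The latter values ran from 3.50 CPM in cKO 4 to 19.1 CPM in cKO 1. The log2 change of Thy1 was -0.02, with the largest SE of the set (0.330) and a sign that turned without control 2 or 3 or cKO 2, 4 or 5.

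The libraries labelled cKO differed among themselves in the whole set. Averaged over the 37 genes, the log2 CPM relative to the control mean lay between -0.02 and 0.02 in the 5 controls. In cKO 1 to 5 it was -0.01, -0.33, -0.19, -0.68 and -0.34. Of the 37 genes, 29 had their lowest value among the libraries labelled cKO in cKO 4, and 26 had their highest in cKO 1. For the neurofilament and tubulin class the average was 0.09 in cKO 1 and -1.02 in cKO 4, and for the transcription factors it was 0.12 and -0.27.

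**Figure D5:**
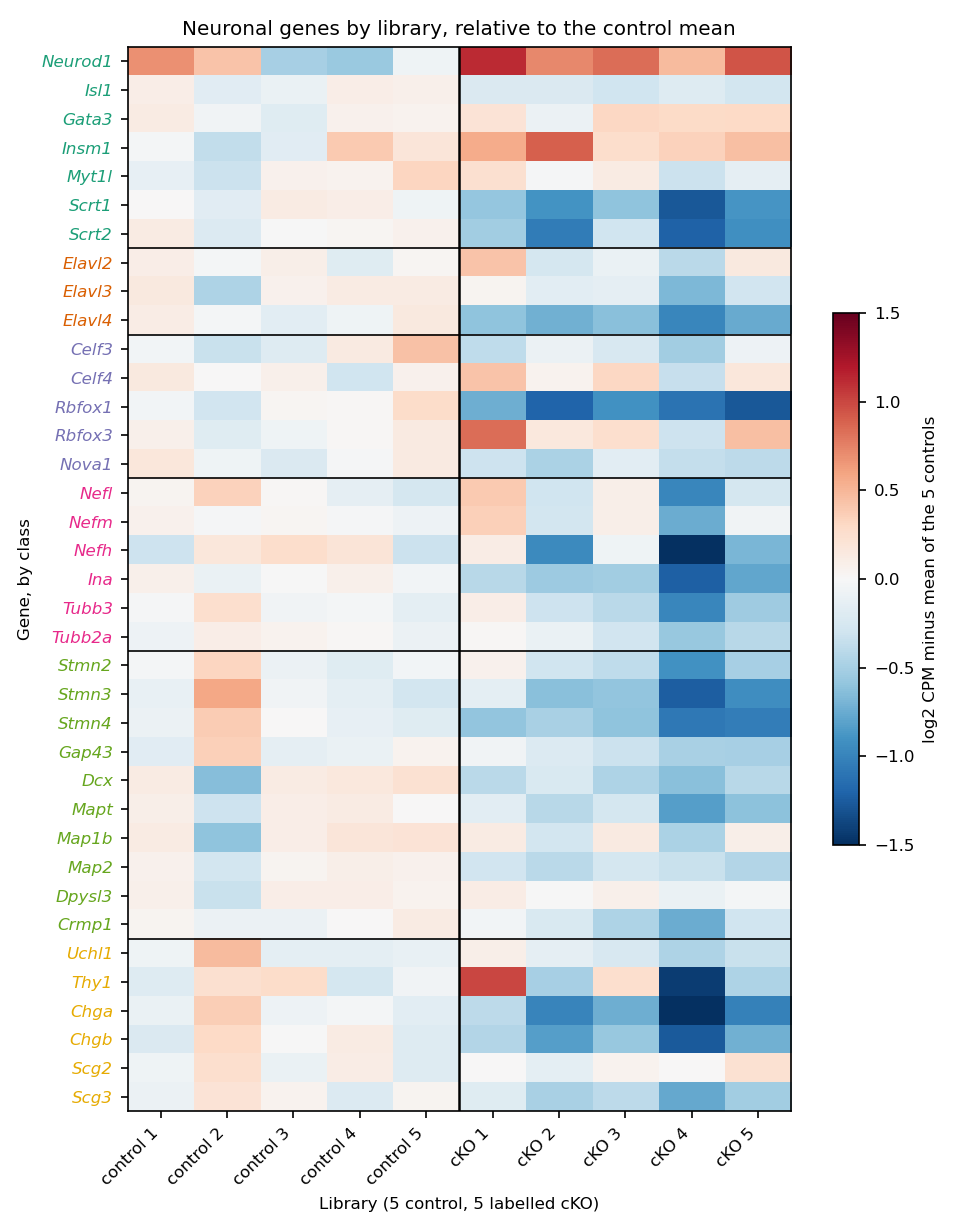
Log2 CPM of the 37 genes (y axis, grouped by class) in the 10 libraries (x axis), relative to the mean of the 5 controls, in red where higher and blue where lower. The column of cKO 4 is the bluest, with a mean of -0.68, that of cKO 1 is near 0 on average, and control 2 differs from the other controls in both directions.

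From a list of further neuronal genes and one of spiral ganglion genes, which together hold 54 tested genes, 5 fell at an edgeR adjusted p under 0.05 and 0 rose. The shares of all tested genes were 0.546% and 0.0725%. At an unadjusted p under 0.05, 23 were lower and 1 was higher, against 5.52% and 4.13% of all tested genes. Both lists were chosen with earlier results of these data known. Among the 5 that fell were the vesicular glutamate transporter Slc17a7 at -1.13 (SE 0.138), the calcium-binding proteins Calb2 at -1.67 (SE 0.202) and Pvalb at -1.21 (SE 0.231), and the transcription factor Runx1 at -0.84 (SE 0.101), on the log2 scale. Adjusted p was 0.0282 for Pvalb and 0.00108 for Slc17a7, Calb2 and Runx1. The call of Pvalb was lost without control 1, 2, 3 or 4 or cKO 2, 3, 4 or 5, with adjusted p between 0.0504 and 0.128, and it was also lost with no filter on low counts (0.255) and with the replicate number as a block (0.0771). Exons of Runx1 overlap those of another gene. The median log2 change was -0.16 for the 42 tested further neuronal genes and -0.46 for the 18 spiral ganglion genes.

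The 18 spiral ganglion markers summed to 887 to 1001 CPM in controls and 653 to 821 CPM in the libraries labelled cKO, without overlap. Markers of other ganglia were low. Of the list for other cranial and autonomic ganglia, Dbh and Hand2 had fewer than 10 counts in every library and 3 of the 8 matched genes were tested, with 0 called, 1 lower at an unadjusted p under 0.05, and 1 called lower by DESeq2 and by limma-voom. Its summed level was 40.2 to 57.8 CPM in controls and 26.4 to 44.2 CPM in the libraries labelled cKO. Values of nerve glia were lower as well: the Schwann cell and satellite glia list had 12 of 15 log2 changes under 0, a median of -0.35, 0 calls by edgeR, 6 lower genes at an unadjusted p under 0.05 and 2 calls by DESeq2 and by limma-voom. Over all tested genes, 51.7% had a log2 change under 0, and 5.52% were lower at an unadjusted p under 0.05. The summed level of the nerve glia list was 1991 to 2541 CPM in controls and 1632 to 2168 CPM in the libraries labelled cKO, lowest in cKO 4. The part of this in the neuronal values was not tested.

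The median log2 change was -0.06 for 12 tested hair cell genes, 0.01 for 12 supporting cell genes, 0.12 for 9 genes of the periotic mesenchyme and 0.16 for 9 macrophage genes. It was -0.16 for 12 genes of oligodendrocytes and astrocytes, -0.08 for 8 of brain neurons, -0.76 for 7 of red cells and 0.17 for 4 of skeletal muscle. Summed brain glia markers ran from 621 to 846 CPM in controls and from 709 to 934 CPM in cKO 1 to 5, and summed brain neuron markers from 264 to 306 CPM and from 280.3 to 363 CPM. Of the 14 brain neuron genes, Gabra6 alone was at 0 in all 10 libraries. Lhx9 and Barhl2 also had fewer than 10 counts in every library, and 8 of the 14 were tested. Summed red cell genes ran from 714 to 2968 CPM in controls and from 444 to 1296 CPM in cKO 1 to 5. The part of these in the neuronal values was not tested. The calls in these lists were Olig1, Olig2 and Aqp4 among the glial genes of the brain, Cbln1 among brain neuron genes and Fgf10 among supporting cell genes, all lower. Log2 changes were -2.75 for Olig1, -2.04 for Olig2 and -1.61 for Aqp4, at edgeR adjusted p of 0.000246, 0.00575 and 0.00330. These 3 calls held in all 10 fits with 1 library left out, while 5 of the 12 tested brain glia genes had a log2 change above 0. The calls of Cbln1 and Fgf10 were lost when 1 library was left out, in 8 and 6 of 10 fits, with adjusted p of up to 0.114 and 0.117. The lists of hair cells, mesenchyme, macrophages, red cells and muscle had 0 calls by edgeR, and 1, 0, 1, 1 and 1 of their genes had an unadjusted p under 0.05. DESeq2 and limma-voom called 0 genes of them except for 1 higher muscle gene.

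Promoter sequence was examined for the genes of the set, and is shown for those that fell. RefSeq windows on GRCm38.p6, from 250 bases before to 50 after a transcription start, were found for 24 of the 37 genes and for 5 of the 8 called genes. The extended site of estrogen-related receptors, TNAAGGTCA, was searched on both strands along with the E-boxes CAGATG and CAGCTG, the class of motif that Neurog1 and Neurod1 bind. TNAAGGTCA was in 0 of 24 genes, where 1.28% of all 32851 windows and 1.43% of all 27025 genes have it. CAGATG was in 5 of 24, against 17.2% of windows and 19.2% of genes. CAGCTG was in 12 of 24, against 16.3% of windows and 18.3% of genes: in all 5 called genes with a window, and in 7 of the 19 others. Elavl4 has 4 windows and Rbfox1 has 2, and a gene with more windows has more chances of a match.

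The windows of those 5 genes are shown 5′ to 3′ on the strand of the gene, with both E-boxes in capitals; where a gene has several windows, the one shown is the first in the table with CAGCTG. They are chr4:110287478-110287777 for Elavl4, chr16:7069585-7069884 for Rbfox1, chr19:47014431-47014730 for Ina, chr12:102554691-102554990 for Chga and chr2:132781392-132781691 for Chgb.
Elavl4: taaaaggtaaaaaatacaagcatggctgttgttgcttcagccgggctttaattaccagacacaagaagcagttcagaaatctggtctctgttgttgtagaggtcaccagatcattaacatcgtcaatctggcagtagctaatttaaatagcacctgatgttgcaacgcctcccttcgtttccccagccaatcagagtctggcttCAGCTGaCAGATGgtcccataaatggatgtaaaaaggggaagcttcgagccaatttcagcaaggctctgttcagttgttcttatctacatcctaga
Rbfox1: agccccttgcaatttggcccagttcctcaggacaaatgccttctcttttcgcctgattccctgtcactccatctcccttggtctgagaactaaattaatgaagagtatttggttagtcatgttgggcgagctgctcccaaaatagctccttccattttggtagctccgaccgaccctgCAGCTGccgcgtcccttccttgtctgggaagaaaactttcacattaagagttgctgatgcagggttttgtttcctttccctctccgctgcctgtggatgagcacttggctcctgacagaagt
Ina: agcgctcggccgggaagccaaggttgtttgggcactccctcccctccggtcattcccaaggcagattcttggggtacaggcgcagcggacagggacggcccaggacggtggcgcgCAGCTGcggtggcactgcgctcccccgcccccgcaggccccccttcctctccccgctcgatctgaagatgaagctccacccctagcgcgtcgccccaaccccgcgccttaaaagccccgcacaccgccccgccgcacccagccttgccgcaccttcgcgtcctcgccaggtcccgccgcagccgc
Chga: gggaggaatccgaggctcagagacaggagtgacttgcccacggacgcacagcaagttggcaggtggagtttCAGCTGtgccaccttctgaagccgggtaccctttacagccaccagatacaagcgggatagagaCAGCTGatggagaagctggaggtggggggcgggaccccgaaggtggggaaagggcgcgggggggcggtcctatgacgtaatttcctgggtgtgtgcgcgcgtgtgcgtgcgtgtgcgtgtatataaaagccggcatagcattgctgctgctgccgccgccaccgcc
Chgb: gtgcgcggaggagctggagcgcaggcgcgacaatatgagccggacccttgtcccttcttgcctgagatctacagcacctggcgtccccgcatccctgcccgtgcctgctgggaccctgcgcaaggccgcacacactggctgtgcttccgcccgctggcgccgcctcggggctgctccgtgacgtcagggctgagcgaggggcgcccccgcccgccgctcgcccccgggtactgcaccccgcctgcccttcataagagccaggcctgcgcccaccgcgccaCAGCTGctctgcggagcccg
CAGCTG begins at -46 relative to the start site in Elavl4, followed by CAGATG at -39. It begins at -72 in Rbfox1, -135 in Ina, -179 and again -116 in Chga, and 31 bases after the start in Chgb. GC content ran from 43.7% in the Elavl4 window to 72.7% in that of Chgb, with a median of 52.7% over all windows. A match of letters does not show that a factor binds there.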

How the data were processed

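Per the labels, RNA was extracted with a kit, polyadenylated RNA was made into libraries, and these were read as pairs of 150 bp on an Illumina instrument. The submitters' processing notes name STAR 2.5, HTSeq 0.61, DESeq2 and the build mm10 without roles; the annotation release and the use of strand are not given in the sources used here. The authors deposited whole-number counts per Ensembl gene and FPKM values (per kilobase of gene length and library total), and columns were matched to libraries by the library name in the labels. Gene names, positions and exon overlaps came from GENCODE M21 (GRCm38). It held 54409 of 54532 gene IDs, and the gene lengths implied by the deposited FPKM and counts lay within 0.1% of its merged exon lengths for 95.2% of the 13928 genes where all libraries reached 50 counts.

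The deposited counts were tested with edgeR 4.0.16 (filterByExpr, TMM, robust quasi-likelihood F-test, genotype as the only term) across all 17937 genes, with Benjamini-Hochberg adjustment over all of them and a threshold of 0.05. SE is the log2 fold change divided by the root of F. CPM uses TMM-scaled totals, and log2 CPM a prior count of 2. The self-test on simulated data recovered known changes. Alternatives were other size factors and filters, DESeq2 1.42.0, limma-voom with sample quality weights and limma 3.58.1 on log2(FPKM + 1) and log2(FPKM + 0.1), the replicate block and each library left out. By rule, values per library are given for Esrrg, called genes of the set and, per class, the highest and lowest gene by FPKM in controls; the values of Rbfox3, Nefm, Dcx and Dpysl3 and the ranges of Isl1, Elavl3, Tubb3 and Scg2 were added after they had been seen. The genes, lists, tests and alternatives were chosen with earlier results of these data known, so the spiral ganglion list is no independent evidence of its direction. Context lists comprised neurons, other ganglia, nerve and brain glia, brain neurons, hair cells, supporting cells, mesenchyme, macrophages, red cells and muscle. The p-values measure the spread between 5 animals per group. Some genes of the context lists are not reported here.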

Additional observations from a re-analysis of the deposited data

Results flagged for a closer look

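Dixon's criterion (critical value 0.71) was applied within controls and within the libraries labelled cKO to the 37 genes, Esrrg and the 3 paralogue differences, to find single libraries far from the rest of their group. There were 10 such cases in 82 groups, where chance gives about 5%, or 4.1, and all 10 fell on control 2, so they are not independent. The CPM of control 2 was high for Stmn2 (203, others 143 to 159), Stmn3 (193, others 107 to 125), Stmn4 (23.6, others 15.9 to 18.2), Uchl1 (307, others 199 to 212) and Chga (43.5, others 30.0 to 32.8). It was low for Elavl3 (33.6, others 48.4 to 51.2), Dcx (80.9, others 137 to 148), Map1b (183, others 299 to 321), Map2 (73.2, others 91.3 to 94.3) and Dpysl3 (370.1, others 484 to 500). The 5 genes with a high value have merged exon lengths of 1.14 to 5.60 kb and the 5 with a low value 6.61 to 16.4 kb. The part of gene length in these values was not tested.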

How the results depend on the processing

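Scrt1, Elavl4 and Rbfox1 kept their direction and call under all 8 other settings and all 10 fits with 1 library left out. Over those 10 fits the calls ran from 3 to 11 lower and 0 to 0 higher for the set, from 1 to 3 for transcription factors, 1 to 1 for the Elavl and for the other RNA-binding class, 0 to 1 for neurofilaments and tubulins, 0 to 4 for the growth cone class and 0 to 3 for the granin class, and from 7 to 15 lower and 0 to 1 higher for the context genes; the medians ran from -0.37 to -0.26 for the set and from -0.11 to 0.065 for transcription factors. Limma-voom with quality weights called 14 lower and 1 higher gene of the set (Neurod1), 5 of the growth cone class, and 22 lower and 1 higher context genes, where edgeR called 10 and 0. DESeq2 called 3 of the growth cone class and 17 lower and 1 higher context genes. On log2(FPKM + 0.1) 1 transcription factor was called, as Scrt2 had an adjusted p of 0.0507. Esrrg had a log2 fold change of 0.61 and an adjusted p of 0.0562 with the replicate block, 0.57 on log2(FPKM + 1) with an adjusted p of 0.0504 and 0.61 on log2(FPKM + 0.1) with an adjusted p of 0.0501, so that its call ended in all 3, and 0.54 to 0.70 with 1 library left out. Over all tested genes, edgeR called 98 lower and 13 higher, DESeq2 253 and 54, limma-voom 362 and 74, and edgeR with 1 library left out 44 to 178 lower. The cause of these moves was not tested.

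Signs turned for genes near 0. Dpysl3 was at -0.0015 with 10 or more counts in 5 or more libraries and at -0.081 with limma-voom. With 1 library left out the range was -0.083 to 0.029 for Dpysl3, -0.15 to 0.070 for Elavl2, -0.11 to 0.065 for Myt1l, -0.21 to 0.048 for Nefm, -0.030 to 0.081 for Scg2 and -0.44 to 0.19 for Thy1.

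The replicate numbers are not stated to mark litters or days. Deviations of same-numbered libraries correlated at 0.021 to 0.18 across genes, against -0.29 to 0.17 for libraries of different numbers. Of the 5 controls, 3 correlated best with their own number, as did 3 of the 5 libraries labelled cKO. The source of this was not tested. With the replicate block 7 genes of the set were called, with 1 of the granin class, as Chgb was lost. Sign flips over the same pairs gave the paralogue differences of -0.49, -0.69 and -1.32 an exact p of 0.0625, the smallest that 5 pairs allow, and with 1 library left out those differences ran from -0.55 to -0.39, -0.76 to -0.61 and -1.45 to -1.22.

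At 20 or more counts in 5 or more libraries, or 10 or more in all 10, 37 genes met the rule.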
